A study of Rattus norvegicus with 24 samples.

Results

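Aldh1a1, Aldh1a4 (newer name Aldh1a7) and Aldh1b1 encode 3 aldehyde dehydrogenases whose liver transcripts were followed in rats given 1 of 6 chemicals. The genes were chosen from their measured log2 ratios across these same compounds, so their ratios are given as a description, with no test. All probes that the array design names for them were taken. For Aldh1a1 and Aldh1b1, but not for Aldh1a4, probes listed under the gene's RefSeq record were searched as well. The search gave 9 probe IDs with 6 distinct sequences for 3 genes, of 12382 genes or unnamed probe sequences that could be tested. The study treated male F344 rats, a laboratory inbred strain listed at 5 weeks of age, by daily gavage at 5 ml/kg for 28 days, with 4 rats for each compound and 24 arrays in all. The treated groups received hexachloroethane, a chlorinated solvent, at 500 mg/kg/day, 1,2,3-trichloropropane, another chlorinated solvent, at 50 mg/kg/day, or 1-amino-2-methylanthraquinone, a dye and dye intermediate, at 150 mg/kg/day. The other treated groups received 3-(4-chlorophenyl)-1,1-dimethylurea, the herbicide monuron, at 250 mg/kg/day, 1,2-dichlorobenzene, an aromatic solvent, at 300 mg/kg/day, or the antibiotic tetracycline hydrochloride at 1000 mg/kg/day. Corn oil was the vehicle throughout, except for tetracycline hydrochloride, which was given in water. The rats of a group were separate animals. Each array held the liver RNA of 1 treated rat, labelled with Cy3, beside pooled liver RNA of vehicle-dosed control rats labelled with Cy5. Whether the corn oil compounds shared a pool is not given in the sources used here. A ratio is therefore treated rat over pool, and the spread between control rats does not enter it. The dyes were never swapped, each compound lay on a slide of its own, and the doses were not matched, so compound and slide are confounded and cannot be told apart.

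Aldehyde dehydrogenases oxidise aldehydes to carboxylic acids and clear reactive aldehydes that arise from alcohols, lipid peroxidation and foreign chemicals. Aldh1a1 is a cytosolic enzyme that turns retinaldehyde into retinoic acid, and Aldh1a4 is its close rodent relative, known in rat liver as a phenobarbital-inducible aldehyde dehydrogenase. Aldh1b1 is a mitochondrial enzyme that oxidises acetaldehyde and retinaldehyde, a compartment it shares with Aldh2, the main acetaldehyde-clearing enzyme.

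The array measured each gene with 2 different 60-base sequences, shown here because the Aldh1a1 and Aldh1a4 values below move together and the letters show how far their probes are alike. Capitals mark the longest stretch that an Aldh1a1 and an Aldh1a4 probe have in common on the same strand.
Aldh1a1, first sequence: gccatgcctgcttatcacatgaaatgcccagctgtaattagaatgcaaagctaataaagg
Aldh1a1, second sequence: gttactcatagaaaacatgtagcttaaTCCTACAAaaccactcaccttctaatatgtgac
Aldh1a4, first sequence: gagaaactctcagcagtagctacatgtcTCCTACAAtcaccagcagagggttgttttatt
Aldh1a4, second sequence: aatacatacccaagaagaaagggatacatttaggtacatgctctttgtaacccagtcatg
Aldh1b1, first sequence: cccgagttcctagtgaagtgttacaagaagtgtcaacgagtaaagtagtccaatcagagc
Aldh1b1, second sequence: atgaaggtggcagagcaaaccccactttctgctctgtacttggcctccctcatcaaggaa
The shared stretch was 8 bases long. Over the 12 pairs of sequences from different members, the best ungapped alignment on either strand matched 18 to 24 of 60 bases, and the longest run on the opposite strand was 10 bases. The longest run that any of the 6 sequences shared with any of the other 21327 probe sequences on the array was 13 or 14 bases. The first sequence of each gene sat under 2 probe IDs and filled 4 spots on each array, and the second sequence filled 2. Where in each transcript the probes lie was not determined here. Probes were compared only with probes, so these matches cannot show whether a probe binds the transcript of another member, which was not tested.

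Between 61.3% and 73.2% of non-control spots were well above background in the treated channel, against 65.5% to 77.7% in the vehicle channel. The log2 ratios of any 2 arrays of the same compound correlated across genes at between 0.38 and 0.91. All 8 hepatocyte markers examined, albumin (Alb) among them, were well above background in the vehicle channel of all 24 arrays. The number of arrays, 4 for each compound, limits the precision of every value.

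Read from its brightest probe, Aldh1a1 transcript was higher than vehicle in 24 of 24 treated rats. Under 4 compounds the difference had nearly the same size. With the second probe sequence the lowest tetracycline rat was at -0.21. With a single dye orientation, a ratio alike under all compounds and a dye effect cannot be told apart. The Aldh1a1 level of the brightest probe is given as the log2 ratio of treated rat over pool. Monuron gave 2.68, 2.40, 2.62 and 2.71 in the 4 rats, a mean of 2.60 ± 0.14 (SD, n = 4), which is 6.07-fold. 1,2-Dichlorobenzene gave 2.54, 2.86, 2.43 and 2.10, a mean of 2.48 ± 0.31 or 5.58-fold. 1-Amino-2-methylanthraquinone gave 2.82, 2.35, 2.36 and 2.31, a mean of 2.46 ± 0.24 or 5.51-fold. The rats of these 3 compounds overlapped throughout, although their daily doses were 250, 300 and 150 mg/kg. 1,2,3-Trichloropropane, at 50 mg/kg/day the lowest dose of the study, gave 2.65, 2.13, 2.24 and 2.52, a mean of 2.38 ± 0.24 or 5.22-fold. Hexachloroethane gave 1.27, 1.00, 1.02 and 1.61, a mean of 1.22 ± 0.29 or 2.33-fold. Tetracycline hydrochloride, at the highest dose, gave 1.68, 0.57, 1.20 and 0.29, a mean of 0.94 ± 0.63, just short of 2-fold. No rat of the last 2 compounds reached any rat of the first 4. In whole liver RNA, a changed number of expressing cells and a changed amount of RNA in each cell cannot be told apart. Aldh1a1 ranked 3rd (1,2,3-trichloropropane), 6th (monuron), 9th (1,2-dichlorobenzene), 18th (1-amino-2-methylanthraquinone), 25th (tetracycline hydrochloride) and 41st (hexachloroethane) from the top of 12382 genes.

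Aldh1a1 was past 2-fold under 5 compounds and Aldh1a4 under 4. Under the fifth of the Aldh1a1 compounds, hexachloroethane, the mark was not reached by the second probe sequence (0.86) or under median centring (0.42, which is 0.72 above the median of all genes). As background for these counts, the share of all tested genes called higher (limma, adjusted p under 0.05 and at least 2-fold) was 0.46% under hexachloroethane, 0.275% under 1,2,3-trichloropropane, 1.23% under 1-amino-2-methylanthraquinone, 0.695% under monuron, 0.743% under 1,2-dichlorobenzene and 0.153% under tetracycline hydrochloride. The share called lower was 0.428% under hexachloroethane, 0.63% under 1,2,3-trichloropropane, 0.864% under 1-amino-2-methylanthraquinone, 0.654% under monuron, 0.791% under 1,2-dichlorobenzene and 0.121% under tetracycline hydrochloride. The members were picked from these same ratios, so nothing is read from that contrast. The median log2 ratio over all genes lay between -0.03 and -0.01 for the 6 compounds.

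**Figure D1:**
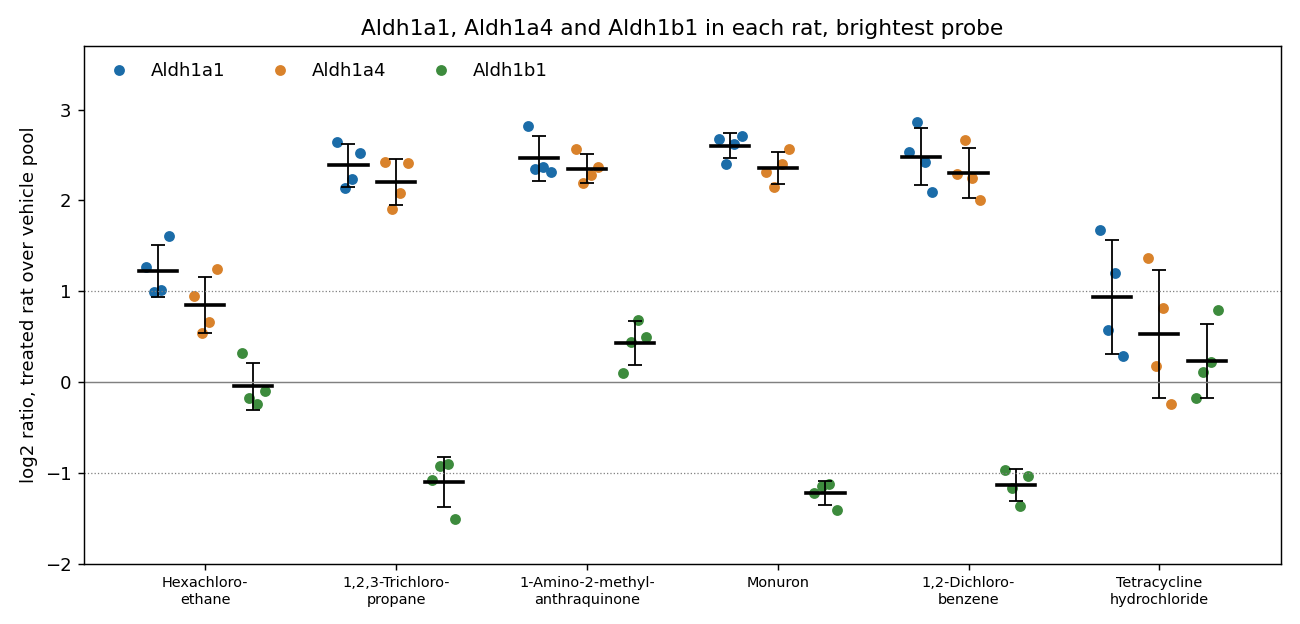
Log2 ratio of treated rat over vehicle pool (vertical axis) for Aldh1a1, Aldh1a4 and Aldh1b1 under each compound. Points are single rats, long bars the mean and whiskers the SD of 4 rats, and dotted lines mark 2-fold: the Aldh1a1 and Aldh1a4 means lie above 2 under 4 compounds, and the Aldh1b1 mean lies below -1 under 3 of those 4.

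Read from its brightest probe, Aldh1a4 followed Aldh1a1 at a slightly lower ratio, and 23 of 24 rats were above the pool. Monuron gave log2 ratios of 2.31, 2.15, 2.40 and 2.57, a mean of 2.36 ± 0.18 (SD, n = 4) or 5.13-fold. 1-Amino-2-methylanthraquinone gave 2.57, 2.19, 2.27 and 2.36, a mean of 2.35 ± 0.16 or 5.10-fold. 1,2-Dichlorobenzene gave 2.29, 2.66, 2.24 and 2.00, a mean of 2.30 ± 0.27 or 4.92-fold. The order of these compounds could not be read, since neighbouring means lay within 0.10 of each other and the rats overlapped. 1,2,3-Trichloropropane gave 2.42, 1.91, 2.09 and 2.41, a mean of 2.20 ± 0.25 or 4.61-fold. Hexachloroethane gave 0.94, 0.55, 0.67 and 1.24, a mean of 0.85 ± 0.31 or 1.80-fold. Tetracycline hydrochloride gave 1.36, 0.18, 0.81 and -0.24, a mean of 0.53 ± 0.71 or 1.44-fold. As for Aldh1a1, the last 2 compounds stood apart from the other 4, with a gap of 1.36 between the mean under 1,2,3-trichloropropane and the mean under hexachloroethane and no overlap of rats.

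The tie between Aldh1a1 and Aldh1a4 held from rat to rat. Pearson's r of their log2 ratios was 0.99 over 24 arrays, and 0.97 for each rat's deviation from the mean of its compound. Both genes are read from the same arrays, and binding of a probe to the other gene's transcript was not tested, so these are descriptions. In both genes the 4 tetracycline rats kept the same order, with the same rat at 1.68 in Aldh1a1 and 1.36 in Aldh1a4 and the same rat at 0.29 and -0.24. Aldh1a1 minus Aldh1a4 was 0.37 ± 0.06 under hexachloroethane, 0.18 ± 0.06 under 1,2,3-trichloropropane, 0.11 ± 0.13 under 1-amino-2-methylanthraquinone, 0.24 ± 0.10 under monuron, 0.18 ± 0.06 under 1,2-dichlorobenzene and 0.41 ± 0.09 under tetracycline hydrochloride. For comparison within a single gene, the second Aldh1a1 sequence read 0.19 to 0.37 below the first in the compound means, and it did so in all 24 rats.

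Aldh1b1 behaved otherwise: it was lower under 3 of the 4 compounds with the highest Aldh1a1, and not under the other. Monuron gave log2 ratios of -1.22, -1.14, -1.13 and -1.41, a mean of -1.22 ± 0.13 (SD, n = 4), or 2.34-fold lower than vehicle. 1,2-Dichlorobenzene gave -0.96, -1.17, -1.36 and -1.04, a mean of -1.13 ± 0.18 or 2.19-fold lower. 1,2,3-Trichloropropane gave -1.08, -0.92, -0.90 and -1.50, a mean of -1.10 ± 0.28 or 2.15-fold lower. Under these 3 compounds the 2-fold mark was not reached without background subtraction (-0.92 under monuron, -0.79 under 1,2-dichlorobenzene and -0.75 under 1,2,3-trichloropropane) or with the mean over probes (-0.91, -0.83 and -0.81 in that order). All 12 rats of these compounds were below the pool and below every rat of the other 3 compounds. 1-Amino-2-methylanthraquinone, by contrast, gave 0.10, 0.44, 0.68 and 0.49, a mean of 0.43 ± 0.24, in animals whose Aldh1a1 overlapped that of monuron rats. Centring arrays on the median instead of loess gave -0.03 there, which is 0.29 above the median of all genes under that centring. Hexachloroethane gave 0.33, -0.18, -0.24 and -0.10, a mean of -0.05 ± 0.26. Tetracycline hydrochloride gave -0.18, 0.11, 0.22 and 0.79, a mean of 0.24 ± 0.41, and median centring gave -0.09, which is 0.12 above the median of all genes. The tetracycline rat with the highest Aldh1b1, at 0.79, was the one with the lowest Aldh1a1, and the rat with the lowest Aldh1b1, at -0.18, was the one with the highest. Over the 24 arrays Aldh1b1 correlated with Aldh1a1 at r = -0.59 and with Aldh1a4 at r = -0.57, and deviations from the compound means gave -0.55 and -0.57.

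The 2 channels of the arrays, read apart, place the low hexachloroethane and tetracycline ratios of Aldh1a1 differently. Signals here are log2 values after loess and between-array quantile scaling of the average signal, and they describe levels of 1 probe across slides. In the treated channel Aldh1a1 averaged 15.16 ± 0.32 under hexachloroethane, within the 14.95 to 15.67 of the 4 compounds with high ratios. Its vehicle pool, on the same 4 arrays, read 13.94 ± 0.04, whereas the pools of the other 5 compounds read 12.46 to 13.07. In the scanner's processed signals, before this scaling, the hexachloroethane rats ran from 25050 to 41650, against 12210 to 13580 in their pool, and the pools of the other compounds ran from 3468 to 6745. The hexachloroethane pool thus lay 1.17 above the mean of the other 5 pools, the 22nd largest such excess among 12382 genes, where 99% of genes lay below 0.68. Tetracycline hydrochloride had a low treated level of 13.39 ± 0.70, 1.90 below the mean of the other 5 compounds. Its pool, at 12.46 ± 0.08, was low as well. Against the mean of the other 5 pools it lay at -0.61, 183rd from the bottom, where 1% of genes lay below -0.66. Aldh1a4 repeated the high hexachloroethane pool and the low tetracycline-treated level. Its treated level was 12.77 ± 0.31 under hexachloroethane, within the 12.53 to 13.12 of the 4 high compounds, and its pool was at 11.92 ± 0.04, against 10.32 to 10.77 in the other 5 pools, an excess of 1.35 that ranked 13th. Under tetracycline hydrochloride Aldh1a4 was at 11.15 ± 0.76 in treated rats and at 10.62 ± 0.07 in the pool. The 1,2,3-trichloropropane pool was low in both genes, where 1% of genes lay below -0.43. Against the mean of the other 5 pools it lay at -0.48 for Aldh1a1, 83rd from the bottom, and at -0.57 for Aldh1a4, 39th from the bottom. Rats given 1,2,3-trichloropropane lay at -0.03 and -0.04 against the other 5 treated means. Hexachloroethane and tetracycline hydrochloride were scanned on the same day, on separate slides and with pools of different vehicles, and slide, vehicle and pool cannot be told apart. Scaling the processed signals to each channel's 75th percentile, an alternative chosen after these values were seen, left the excess of the hexachloroethane pool at 1.18 for Aldh1a1 and 1.38 for Aldh1a4.

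**Figure D2:**
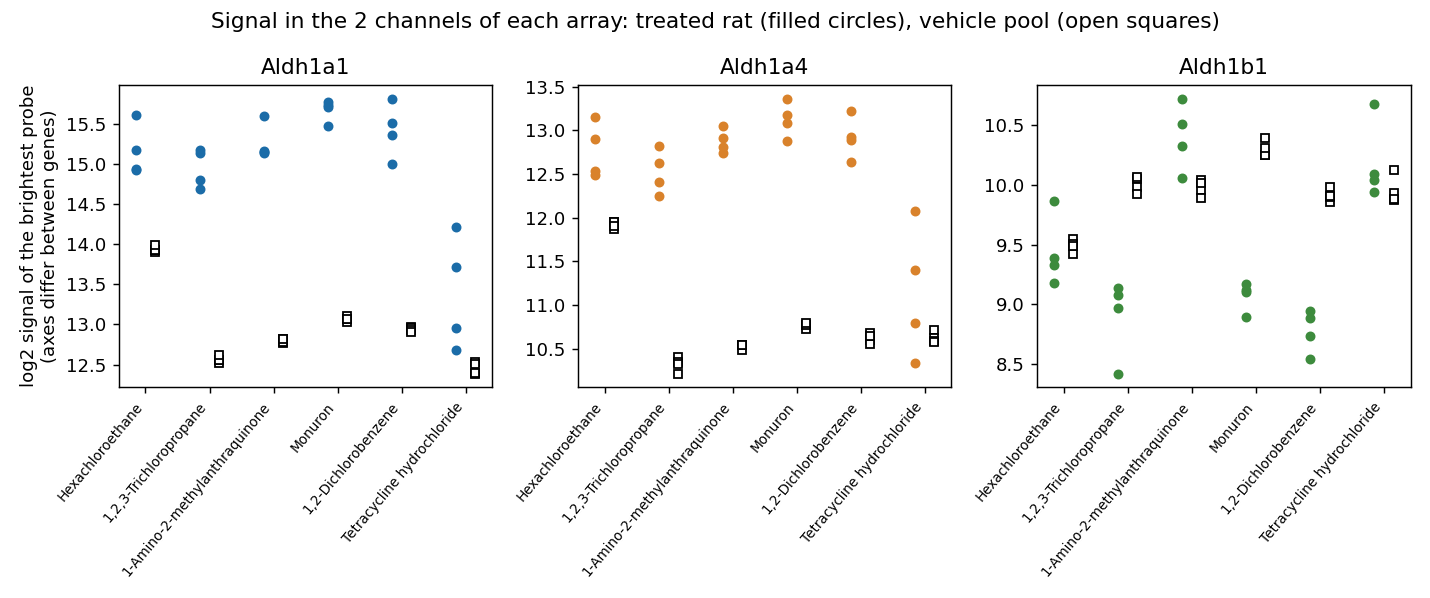
Log2 signal (vertical axis, a separate scale for each gene) of the brightest probe in treated rats (filled circles) and in the vehicle pool of the same arrays (open squares), for each compound. For Aldh1a1 and Aldh1a4 the hexachloroethane pool reads above all other pools, at means of 13.94 and 11.92, while tetracycline-treated rats read below all other treated groups.

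For Aldh1b1 the compound means spanned 1.62 in the treated channel and 0.81 in the vehicle channel. Treated rats averaged 8.90 ± 0.33 under 1,2,3-trichloropropane, 9.07 ± 0.12 under monuron and 8.78 ± 0.18 under 1,2-dichlorobenzene, and the 12 pool readings of the same arrays lay higher, with means between 9.91 ± 0.05 and 10.30 ± 0.07. Under 1-amino-2-methylanthraquinone treated rats averaged 10.40 ± 0.28, with a pool at 9.98 ± 0.07. Tetracycline-treated rats averaged 10.19 ± 0.33, with a pool at 9.95 ± 0.12. Hexachloroethane had the lowest pool of the 6, at 9.49 ± 0.05, beside treated rats at 9.44 ± 0.30. The excess of the hexachloroethane pool was thus positive in Aldh1a1 and Aldh1a4 and negative, at -0.54, in Aldh1b1. That value ranked 439th from the bottom, where 1% of genes lay below -0.87. The monuron pool lay 0.43 above the mean of the other 5 pools, 201st from the top, where 99% of genes lay below 0.49.

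The second probe sequence followed the first closely for Aldh1a1 and less closely for the other 2 genes. For Aldh1a1 the second sequence was well above background on all 24 arrays in both channels and gave mean log2 ratios of 0.86 ± 0.30 under hexachloroethane, 2.20 ± 0.28 under 1,2,3-trichloropropane, 2.15 ± 0.27 under 1-amino-2-methylanthraquinone, 2.34 ± 0.16 under monuron, 2.27 ± 0.29 under 1,2-dichlorobenzene and 0.56 ± 0.72 under tetracycline hydrochloride. The second Aldh1a4 sequence was dim, well above background on 15 arrays in the treated channel and on 7 in the vehicle channel. Under 4 compounds its pool was not well above background on any array, so its fold was taken against the lowest signal that was well above background. It was at least 5.39-fold higher under 1-amino-2-methylanthraquinone and at least 1.74-fold under 1,2-dichlorobenzene, with all 4 treated arrays well above background. The same fold was 1.83 under monuron (3 of 4 treated arrays well above background) and 1.10 under 1,2,3-trichloropropane (1 of 4). There the dim treated arrays entered as measured, so neither value is a lower bound. Its processed signal under 1-amino-2-methylanthraquinone ran from 240.9 to 643.3, against 33.4 to 246.5 under monuron and at most 141.0 under the other 4 compounds. The first Aldh1a4 sequence had no such lead under 1-amino-2-methylanthraquinone, at 2.34 ± 0.16, beside 2.36 ± 0.17 under monuron. Under hexachloroethane the dim second Aldh1a4 sequence gave -0.004 ± 0.29, where the first gave 0.84 ± 0.315. Under tetracycline hydrochloride it gave 3.01e-05 ± 0.24, where the first gave 0.53 ± 0.70. The second sequence thus showed no rise under these compounds, but it was dim, so its values cannot decide whether Aldh1a4 rose there. The second Aldh1b1 sequence was well above background on all arrays but read only 73.0 to 231.7 in treated rats and 103.2 to 166.3 in pools. It gave -0.32 ± 0.06 under monuron, -0.30 ± 0.04 under 1,2-dichlorobenzene and -0.26 ± 0.08 under 1,2,3-trichloropropane, the same direction as the first sequence at a smaller size. It gave 0.05 ± 0.15 under 1-amino-2-methylanthraquinone, 0.04 ± 0.07 under hexachloroethane and 0.18 ± 0.21 under tetracycline hydrochloride. No member probe was saturated on any array.

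**Figure D3:**
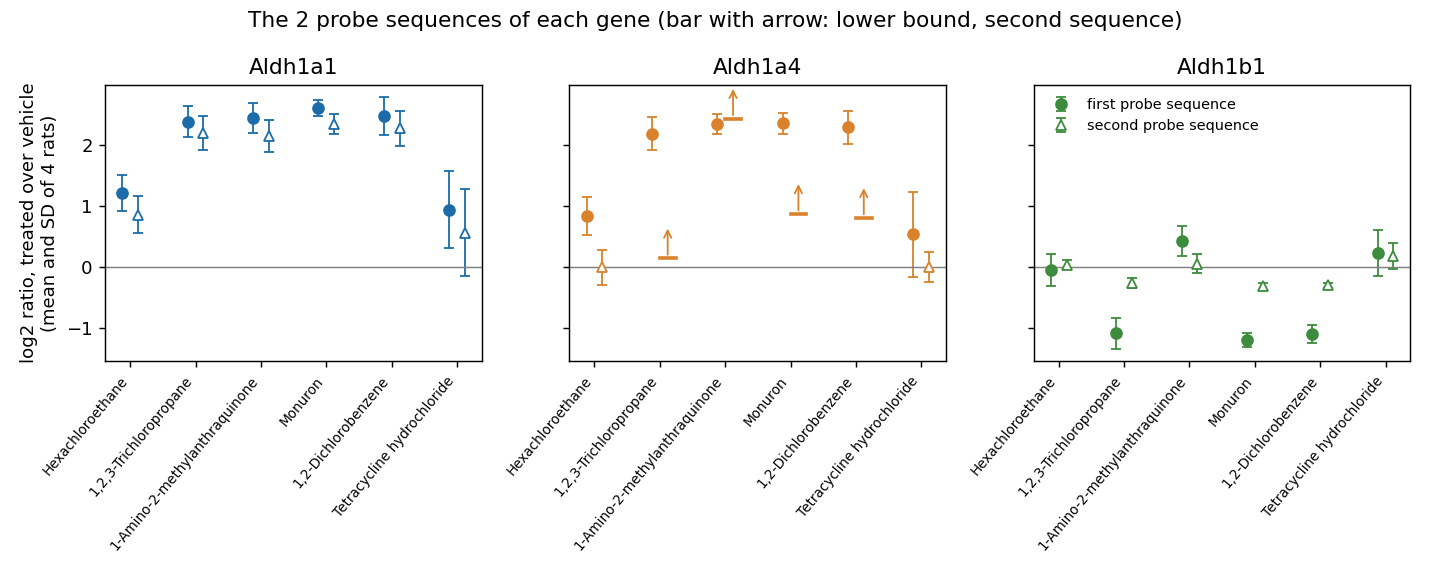
Mean log2 ratio of treated over vehicle (vertical axis, whiskers the SD of 4 rats) for the first (filled circles) and second (open triangles) probe sequence of each gene under each compound. Bars with an arrow are values against the detection limit for the second Aldh1a4 sequence, under the 4 compounds whose pool was not well above background, and they set no upper limit. They are lower bounds under 1-amino-2-methylanthraquinone and 1,2-dichlorobenzene. Under monuron and 1,2,3-trichloropropane some treated arrays were dim too, so the bars there are not firm bounds. The 2 Aldh1a1 sequences stay within 0.37 of each other, and the second Aldh1b1 sequence reads -0.32 to -0.26 under 1,2,3-trichloropropane, monuron and 1,2-dichlorobenzene, closer to 0 than the first.

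Differences between compounds are free of the dye effect that all arrays share, and 2 pairs of compounds also shared a scan day. Hexachloroethane minus tetracycline hydrochloride was 0.29 (SE 0.34) for Aldh1a1, 0.32 (SE 0.39) for Aldh1a4 and -0.28 (SE 0.24) for Aldh1b1. Monuron minus 1,2-dichlorobenzene was 0.12 (SE 0.17), 0.06 (SE 0.16) and -0.09 (SE 0.11) for Aldh1a1, Aldh1a4 and Aldh1b1. The rats overlapped in all 6 of these differences, so no order within either day could be read. The gaps that stood clear of the spread all lay between compounds of different slides and scan days, so compound, slide and day cannot be told apart there.

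None of the other aldehyde dehydrogenases tested reached 2-fold. Of 17 listed family members 9 had a probe and were tested, and 0 of 9 were called under any compound (limma, adjusted p under 0.05 and at least 2-fold). At an unadjusted p under 0.05 with no limit of size, limma gave 5 of 9 under hexachloroethane, 3 under 1,2,3-trichloropropane, 9 under 1-amino-2-methylanthraquinone, 4 under monuron, 5 under 1,2-dichlorobenzene and 5 under tetracycline hydrochloride. The share of all genes at p thresholds with no limit of size is not given, so nothing is read from such counts, here or below. Aldh2 had log2 ratios of -0.62 ± 0.12 under hexachloroethane, -0.67 ± 0.03 under 1,2,3-trichloropropane, -0.90 ± 0.18 under 1-amino-2-methylanthraquinone, -0.75 ± 0.07 under monuron, -0.78 ± 0.07 under 1,2-dichlorobenzene and -0.65 ± 0.03 under tetracycline hydrochloride (limma adjusted p from 7.13e-12 to 1.14e-08). It was lower in 24 of 24 rats, and its compound means spanned 0.28; with a single dye orientation, a ratio alike under all compounds and a dye effect cannot be told apart. The size for Aldh2 moved with the processing, to between -0.47 and -0.25 when its probes were averaged and between -2.16 and -1.45 under median centring. Aldh3a1, a dioxin-inducible family member in rat liver, had 1.36, -0.01, 0.54 and 0.55 under 1-amino-2-methylanthraquinone, a mean of 0.61 ± 0.56 (limma adjusted p = 0.000116), and means of -0.19 to 0.04 under the other 5. Aldh3a2, a fatty aldehyde dehydrogenase of the endoplasmic reticulum, ran from -0.34 ± 0.06 under tetracycline hydrochloride to 0.15 ± 0.02 under 1,2-dichlorobenzene. Aldh1l1, the cytosolic formyltetrahydrofolate dehydrogenase, ran from -0.31 ± 0.24 under tetracycline hydrochloride to 0.41 ± 0.19 under monuron. In the limma F-test for a difference among the 6 compounds with a span of at least 2-fold, which called 5.91% of all genes, 0 of 9 passed, and all 9 had an adjusted p under 0.05 at a smaller span (from 6.25e-07 for Aldh3a2 to 0.0105 for Aldh2). Median centring instead of loess called 2 to 6 of the 9 lower; that centring also put the median of all genes between -0.31 and -0.20.

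**Figure D4:**
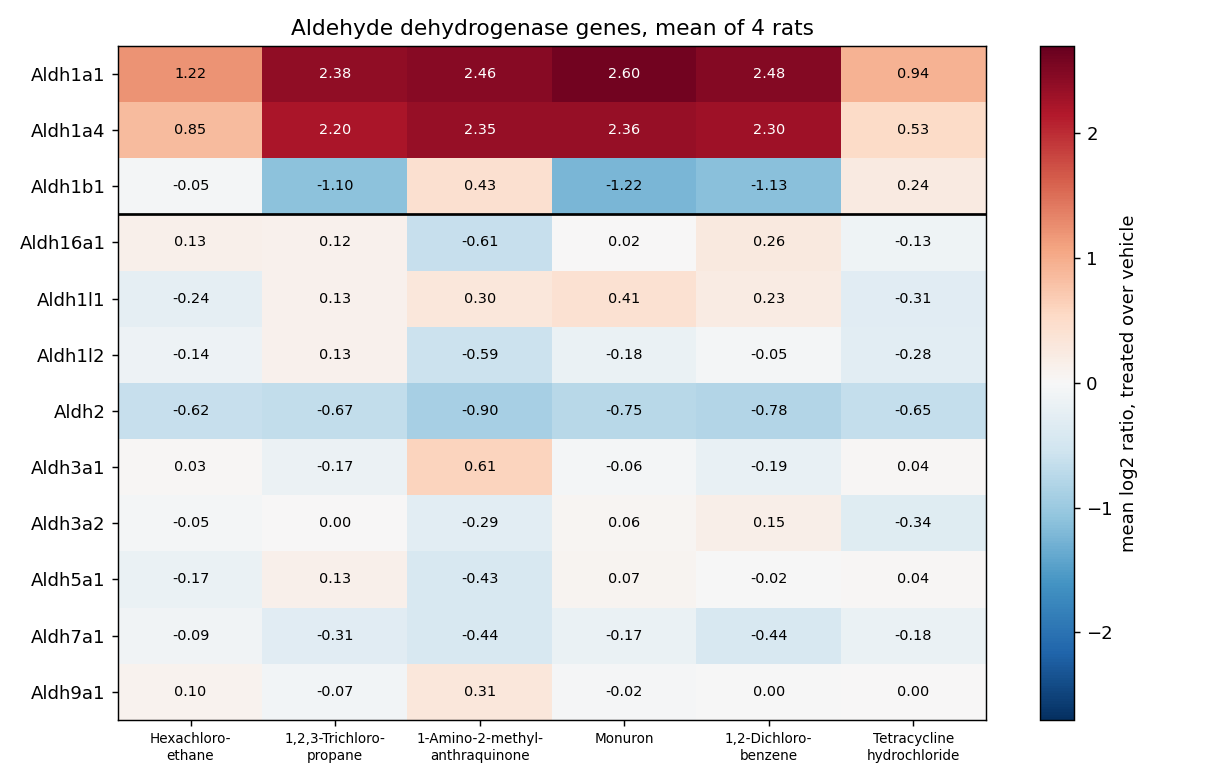
Mean log2 ratio of treated over vehicle in 4 rats (colour and printed number) for the 3 members, above the line, and the other 9 aldehyde dehydrogenases tested, below it, under each compound. Aldh2, from -0.90 to -0.62, and Aldh7a1, from -0.44 to -0.09, are the genes below the line that are negative under all 6 compounds, and none there reaches 1 or -1.

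The enzymes that share substrates with these dehydrogenases mostly stayed below the 2-fold mark. Of 11 tested alcohol dehydrogenases, aldo-keto reductases and other clearing enzymes, 1 fell under hexachloroethane, 1 rose under each of 1,2,3-trichloropropane, monuron and 1-amino-2-methylanthraquinone, 2 rose under 1,2-dichlorobenzene and 0 were called under tetracycline hydrochloride, where limma gave 5 at an unadjusted p under 0.05. The gene that rose under all 4 of the compounds with risers was Akr7a3, the aflatoxin aldehyde reductase, at 2.60 ± 0.44, 2.503 ± 0.19, 2.22 ± 0.39 and 3.58 ± 0.23 in that order (limma adjusted p at most 6.90e-11); these are the 4 compounds of high Aldh1a1. Akr1b8 also rose under 1,2-dichlorobenzene (2.38 ± 1.39, adjusted p = 4.20e-07), and Adh1c, an alcohol dehydrogenase, fell under hexachloroethane by 1.34 ± 0.27 (adjusted p = 1.37e-07). Of 23 tested retinoid pathway genes 0 were called higher under any compound and 0 to 2 lower per compound (limma; 13 to 18 at an unadjusted p under 0.05 in either direction), with list medians from -0.30 to -0.02. Dhrs7, a short-chain dehydrogenase, fell under 5 compounds, by 2.55 ± 0.56 under 1-amino-2-methylanthraquinone (adjusted p = 5.43e-08), with 1,2,3-trichloropropane the exception, and 4 of these 5 calls were lost when the probes of the gene were averaged. Rdh7, a retinol dehydrogenase, fell by 1.16 ± 0.15 under 1-amino-2-methylanthraquinone (adjusted p = 2.36e-12), a call lost with the scanner's own log ratio, and Ces1d, a carboxylesterase, fell by 1.30 ± 0.15 under 1,2-dichlorobenzene (adjusted p = 1.06e-13).

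Lists of genes induced through known xenosensors are given beside the members, as a measure of what else moved. Of 18 tested genes of the Nrf2 battery, the antioxidant and electrophile response, 5 rose under hexachloroethane, 5 under 1,2,3-trichloropropane, 6 under 1-amino-2-methylanthraquinone, 5 under monuron, 8 under 1,2-dichlorobenzene and 1 under tetracycline hydrochloride, and 0 fell. The list medians were 0.62, 0.52, 0.45, 0.77, 0.89 and 0.10 in that order. Of 12 tested genes of the CAR and PXR battery, the drug-metabolism response to phenobarbital-like and pregnane-like compounds, 4, 1, 1, 3, 2 and 1 rose in the same order, and Cyp3a9 fell under 4 compounds, with means from -1.71 ± 0.35 (monuron) to -3.91 ± 0.51 (1-amino-2-methylanthraquinone). Of 5 tested genes of the aryl hydrocarbon receptor battery, 2, 1, 3, 3, 3 and 0 rose, with Cyp1a1 at 5.01 ± 0.44 under 1-amino-2-methylanthraquinone (adjusted p = 7.31e-11), and Cyp1a2 fell under 1,2-dichlorobenzene (-1.19). The CAR and PXR genes that rose under hexachloroethane included Ces2c (2.65 ± 0.33), Ugt2b1 (2.43 ± 0.14) and Cyp2b15 (2.05 ± 0.13). Cyp2b1 and Cyp2b2 of that list had no probe. Under the F-test 11 of 18 Nrf2, 10 of 12 CAR and PXR and 3 of 5 aryl hydrocarbon receptor genes differed among the compounds, beside the background of 5.91%. Some of the calls against vehicle were lost under other processing. Ugt2b1, the tetracycline call of the CAR and PXR battery, was lost with median centring, the scanner's own log ratio and the mean over probes. Median centring also lost Nqo1, Me1, Abcc3 and Cyp2c6v1 under hexachloroethane and turned Ephx1 under 1-amino-2-methylanthraquinone the other way. Nqo1 is in both the Nrf2 and aryl hydrocarbon receptor lists, and Akr7a3 is also among the clearing enzymes. Members and lists were chosen with results of these data known, so the list counts are not independent evidence about the members.

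The genes most like each member, over the log2 ratios of 24 arrays and among 4733 named genes, were found by Pearson's r. For Aldh1a1 and Aldh1a4 alike, the other of the pair came first, followed by Gsta3 (r = 0.96 and 0.95), a glutathione S-transferase that the array lists as Yc2, and Gstt3 (r = 0.91 and 0.90), a theta-class transferase. Gsta3 had means of 2.38 ± 0.13 under hexachloroethane, 4.58 ± 0.49 under 1,2,3-trichloropropane, 4.22 ± 0.69 under 1-amino-2-methylanthraquinone, 5.25 ± 0.06 under monuron, 4.99 ± 0.37 under 1,2-dichlorobenzene and 1.54 ± 1.14 under tetracycline hydrochloride, a steeper version of the Aldh1a1 series. Its 4 tetracycline rats, at 2.72, 0.82, 2.27 and 0.35, kept the Aldh1a1 order. Close relatives of Gsta3 could bind its probe, so this value is uncertain as to the gene. Gsta3 also shared the high hexachloroethane pool, at 12.48 against 10.62 to 11.08 in the other pools, and Gstt3 had its highest pool there, at 15.45 against 14.27 to 15.17. The next in likeness to Aldh1a1 were Plekhb2 (0.89), Akr7a3 (0.88) and Ppp2r1b (0.87), and to Aldh1a4 were Plekhb2 (0.90), Trap1 (0.89) and Dhrs11 (0.88). For Aldh1b1 they were Pdgfrb (0.89), Smarcd2 (0.88), Ube2g2 (0.88), Sf3b3 (0.87) and E2f4 (0.87). None of these 5, nor Plekhb2, Ppp2r1b, Trap1 or Dhrs11, was called at 2-fold under any compound, so none of the 5 genes most like Aldh1b1 matched its size. Pdgfrb, a receptor of hepatic stellate cells, had means from -0.71 under monuron to -0.09 under 1-amino-2-methylanthraquinone.

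**Figure D5:**
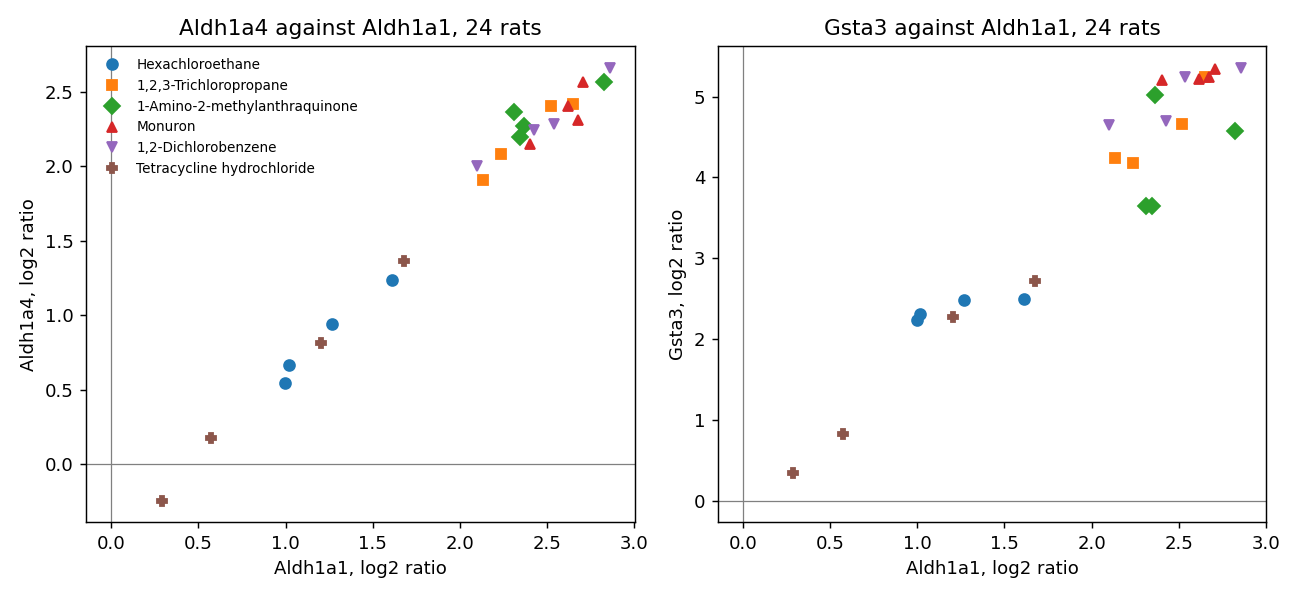
Log2 ratio of Aldh1a4 (left, vertical axis) and of Gsta3 (right, vertical axis) against that of Aldh1a1 (horizontal axes), 1 point for each of 24 rats, with a symbol for each compound. Hexachloroethane and tetracycline rats lie at or below 1.68 in Aldh1a1, apart from the rats of the other 4 compounds, and the tetracycline rats spread along the same line.

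Markers of other liver cells passed the 2-fold call under 2 of the compounds, and some moved by less under others. Under 1-amino-2-methylanthraquinone 3 of 4 tested bile duct markers rose, with a mean of 1.32 over the 4 and Epcam at 2.11. Epcam was also higher, short of 2-fold, under the other 5 compounds, from 0.39 under tetracycline hydrochloride to 0.93 under 1,2-dichlorobenzene (limma adjusted p at most 0.00602). The bile duct list as a whole did not share this. Its mean under these 5 compounds ran from -0.02 (tetracycline hydrochloride) to 0.22 (1,2,3-trichloropropane). Its lowest marker ran from -0.57 (Spp1, 1,2-dichlorobenzene) to 0.11 (Spp1, 1,2,3-trichloropropane). Under monuron 2 of 2 red cell precursor markers rose (Alas2 1.13 and Hbb 1.64) and 1 of 4 macrophage markers rose (Marco 1.07). Hepatocyte markers averaged from -0.53 under 1,2-dichlorobenzene to -0.22 under 1-amino-2-methylanthraquinone. Serpina1 alone of the 8 fell past 2-fold, by 1.06 under 1,2,3-trichloropropane and by 1.10 under 1,2-dichlorobenzene. At an adjusted p under 0.05 alone (limma), 4 to 7 of the 8 were lower and 0 or 1 higher, depending on the compound. Hnf4a was the highest of the 8 under every compound, from 0.14 under 1,2-dichlorobenzene to 0.94 under monuron. Stellate cell and endothelial markers had 0 calls at 2-fold. At an adjusted p under 0.05 alone, 5 of 5 stellate markers were lower under 1,2-dichlorobenzene and 3 of 3 endothelial markers were higher under monuron (limma). The share of all genes at that threshold alone is not given, so nothing is read from these marker counts. Of 5 lymphocyte markers on the array, 3 were too dim to be tested. The part of these cells in the values of Aldh1a1, Aldh1a4 and Aldh1b1 was not tested.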

How the data were processed

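Liver RNA of 24 treated rats was measured on 2-colour Agilent arrays, 1 rat with Cy3 against a vehicle pool with Cy5. Per the submitters' processing notes, Agilent Feature Extraction 9.1.3.1 made the scanner files. The deposited intensity columns held mean spot signals, local background and, per the file headers, processed signals; the deposited log10 column was the log10 ratio of red over green. The authors' series table held log2 ratios of treated over vehicle, a direction found by comparison with the scanner values; its normalization is not given in the sources used here. Here mean signals were background-corrected (normexp, offset 50), loess-normalized within arrays and turned to treated over vehicle, with limma 3.58.1 in R 4.3.3. Spots of 1 probe were averaged, and a gene was read from its brightest probe. Probes dim in all groups were left out, which left 12382 genes or unnamed probe sequences. Genes outside the members were tested with lmFit and eBayes against 0 and by an F-test among compounds, with Benjamini-Hochberg adjustment over all genes and calls at adjusted p under 0.05 and at least 2-fold. The pool counts as 1 control sample, and p-values leave out its spread. The members and lists were chosen with earlier results of these data known. Named genes were the members, a preset group of aldehyde dehydrogenases where measured, at most 5 called genes with the largest ratio per list and compound, and the 5 genes most like each member. In data simulated with independent normal noise for 1-amino-2-methylanthraquinone over 12382 genes, 98% of 50 genes changed 3-fold were called. Of 50 genes changed 1.5-fold 0% were called, which the 2-fold mark of a call largely sets in advance. The simulated data held no dye or slide effect. Alternatives were median centring, the scanner's log ratio, the series table, no background subtraction, the mean over probes, no filter on dim probes, a replicate block and leaving out each rat.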

Additional observations from a re-analysis of the deposited data

Results flagged for a closer look

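In 4 rats of a compound, a value was singled out when its gap to the nearest rat was most of the range of the group (Dixon's 95% critical value), which chance gives in about 1 in 20 groups. Of 18 member values 1 met this: Aldh1a1 in 1 rat given 1-amino-2-methylanthraquinone, at 2.82, with the other 3 between 2.31 and 2.36. Of 83 values of other named genes 6 did. These were Aldh1l1 under 1,2,3-trichloropropane at 0.40, Aldh2 under 1,2-dichlorobenzene at -0.90 and Aldh3a1 under monuron at 0.12. The others were Cyp2c6v1 under monuron at 1.495 and under 1,2-dichlorobenzene at 1.40, and Cyp1a1 under hexachloroethane at 0.98, with the other 3 rats between 3.09 and 3.52.

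Read from its brightest probe after loess, Aldh1b1 was above the pool in all 4 rats given 1-amino-2-methylanthraquinone and below it in all rats given 3 other compounds. The mean under 1-amino-2-methylanthraquinone minus that under 1,2,3-trichloropropane was 1.53, minus that under monuron 1.65 and minus that under 1,2-dichlorobenzene 1.56. These differences were not tested, since the gene was chosen from these ratios. The second probe sequence gave a mean of 0.05 under 1-amino-2-methylanthraquinone, with the lowest rat at -0.15. Beside it stood means of -0.26 under 1,2,3-trichloropropane, -0.32 under monuron and -0.30 under 1,2-dichlorobenzene, so its differences were smaller. Median centring gave the brightest probe -0.03 under 1-amino-2-methylanthraquinone.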

How the results depend on the processing

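Median centring in place of loess lowered most ratios. It gave Aldh1a1 0.42 under hexachloroethane, 1.77 under 1,2,3-trichloropropane, 1.62 under 1-amino-2-methylanthraquinone, 1.93 under monuron and 1.94 under 1,2-dichlorobenzene. In the same order it gave Aldh1a4 0.25, 1.72, 1.75, 1.89 and 1.91, and Aldh1b1 -0.40, -1.41, -0.028, -1.54 and -1.39. Listed genes called became 26 under hexachloroethane (12 with loess), 17 under 1,2,3-trichloropropane (7), 31 under 1-amino-2-methylanthraquinone (12) and 11 under tetracycline hydrochloride (3). Relative to the median of all genes, which it moved by -0.31 to -0.20, Aldh1a1 lay at 0.70 to 2.18 and Aldh1b1 at -0.09, -1.16, 0.29, -1.30 and -1.20 in the order above, so its direction under 1-amino-2-methylanthraquinone against all genes was that with loess. Over all genes it called 25 higher and 656 lower under hexachloroethane, 39 and 428 under 1,2,3-trichloropropane, 119 and 1021 under 1-amino-2-methylanthraquinone, 48 and 445 under monuron, 64 and 418 under 1,2-dichlorobenzene and 23 and 169 under tetracycline hydrochloride. No background subtraction gave Aldh1a4 1.95 under 1,2,3-trichloropropane and 2.12 under 1-amino-2-methylanthraquinone, and Aldh1b1 -0.75 under 1,2,3-trichloropropane, -0.92 under monuron and -0.79 under 1,2-dichlorobenzene. The mean over probes gave Aldh1a4 1.61 under 1,2,3-trichloropropane, 2.54 under 1-amino-2-methylanthraquinone, 2.02 under monuron and 1.90 under 1,2-dichlorobenzene, and Aldh1b1 -0.81, -0.91 and -0.83 under 1,2,3-trichloropropane, monuron and 1,2-dichlorobenzene. The scanner's log ratio gave Aldh1b1 -1.40 under monuron, as did the series table. Over all genes, the scanner's log ratio called 355 higher and 270 lower under 1-amino-2-methylanthraquinone, against 152 and 107 with loess, and no background subtraction called 79 and 75. Under tetracycline hydrochloride the mean over probes left 1 listed gene called, and leaving out each rat gave 1 to 3, with 1 without replicate 1. The cause of these shifts was not tested.

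Replicate numbers were array positions, and the main fit did not pair the rats by them. Between compounds, same-number deviations correlated at a median of 0.04 over 60 pairs, 22 of them over 0.1. Different-number deviations correlated at a median of -0.02 over 180 pairs, 42 of them over 0.1. With the number as a block, 12 listed genes were called under each of hexachloroethane, monuron and 1-amino-2-methylanthraquinone, 7 under 1,2,3-trichloropropane, 17 under 1,2-dichlorobenzene and 3 under tetracycline hydrochloride, within 1.5 times of the counts without it.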
